A study of Bos taurus with 15 samples.

Results

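The 6 genes described here are the fetal growth factor *IGF2*, the 3 IGF2 mRNA-binding proteins *IGF2BP1*, *IGF2BP2*, and *IGF2BP3*, and the 2 fetal growth regulators *LIN28B* and *HMGA2*. They were found by their symbols among the 27270 genes of the count tables, each under 1 identifier (ENSBTAG00000013066, ENSBTAG00000011736, ENSBTAG00000007666, ENSBTAG00000019406, ENSBTAG00000043973, and ENSBTAG00000044118, in the order above). The set was chosen by measured values, with newborn (NB) against adult (AD) levels in cell lineages of the same libraries in view. Every NB and AD value of these genes is therefore a description, with no test.

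The study profiled single cells of the Holstein digestive system with droplet-based 3′ RNA sequencing, in which each captured mRNA molecule is counted by a unique molecular identifier (UMI). The 15 libraries analysed here were 4 AD libraries (duodenum, jejunum, cecum, and colon) and 11 NB libraries, of which 4 matched these tissues and the others covered 3 stomach compartments (reticulum, omasum, and abomasum), the ileum and rectum, the salivary gland, and the liver, with 1 library for each tissue and stage. NB tissues came from 3 calves, not named by library, and the AD tissues from 1 lactating cow. The outer muscle layers were removed from the gut tissues, NB gut tissues passed through EDTA and trypsin before further enzymes, and AD duodenum and cecum were dissociated with a lamina propria kit but AD jejunum and colon with a multi-tissue kit, so stage, animal, and dissociation cannot be told apart.

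IGF2 is a secreted growth factor of the fetus, expressed in many species from the paternal allele, that signals through the IGF1 receptor and the insulin receptor and is cleared by IGF2R. The IGF2BP proteins are cytoplasmic RNA-binding proteins that hold target mRNAs, *IGF2* and *MYC* among them, in stable ribonucleoprotein particles, and *IGF2BP1* and *IGF2BP3* are known as oncofetal genes because they are expressed in embryos and again in tumors. LIN28B blocks maturation of the let-7 microRNAs, and *HMGA2*, *IGF2BP1*, and *IGF2BP3* are among the known let-7 targets.

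Barcodes were assigned to a lineage by 1 gene: *EPCAM* for epithelium, *PTPRC* for leukocytes, *COL1A2* for stroma, and *PECAM1* for endothelium, with at least 1 UMI of that gene and none of the other 3. Levels are UMIs of a gene scaled to a fixed total (counts per 1000000, CPM) summed over the barcodes of a lineage, with 95% exact Poisson intervals in parentheses, and ratios carry exact conditional intervals. All intervals cover counting error only, not differences between animals. A ratio was called NB higher when it was at least 2 and its interval lay above 1, and AD higher by the mirrored rule, among genes with at least 10 UMIs over both stages. An adult count of 0 was taken as 3 UMIs, and ratios at that floor are printed as bounds or after the words at least. The lower limit of the exact interval is below such a ratio. For *IGF2* in EPCAM barcodes of the jejunum it was 8.77 where the floor ratio was 10.9.

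Library totals ranged from 17707625 to 129458578 UMIs in NB and from 48674267 to 67485845 in AD, and 119798 of 172405 barcodes were kept, with a median of 4276 to 8813 UMIs per kept barcode in the NB libraries and 3521 to 3869 in the AD libraries. Each pair of libraries shared 0.128% to 1.02% of barcodes, and at most 84. At least 3 of 4 check markers of epithelium, leukocytes, and stroma were highest in their own lineage in every library with at least 30 barcodes of it. Some tissues held little of their defining cells over all kept barcodes. In the NB liver the hepatocyte genes *ALB* and *APOB* stood at 19.8 and 0.397 CPM, and the acinar gene *AQP5* stood at 1.33 CPM in the NB salivary gland. *FABP2*, an enterocyte gene, stood at 15.1 CPM in the NB ileum and 9.54 CPM in the AD duodenum. The NB reticulum and omasum were rich in the basal keratinocyte gene *KRT5* (6146 and 7422 CPM), and *KRT8* stood at 4.74 and 2.43 CPM in their EPCAM barcodes, so epithelium there means a stratified epithelium.

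The PECAM1 barcodes of the AD duodenum and jejunum lacked endothelial genes: *CDH5* stood at 0.833 and 0 CPM and *CLDN5* at 0 in both, against 338 to 453 CPM and 409 to 1762 CPM in the NB gut. Barcodes with at least 2 blood endothelial markers (*FLT1*, *PLVAP*, *CD34*, *VWF*) were 1 of 129 in the AD duodenum, 1 of 88 in the AD jejunum, 0 of 42 in the AD cecum, where 15 carried lymphatic markers, and 23 of 53 in the AD colon. In the NB liver *CDH5* was also low (34.9 CPM). PECAM1 values from these libraries are given as measured, and only the AD colon held blood endothelial barcodes in number.

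Over the 4 tissues with both stages, 34 of 72 possible gene and tissue combinations had enough UMIs, and 24 were higher in NB and 0 higher in AD. In EPCAM barcodes 5 of 10 were called, beside 7.91%, 9.56%, and 6.45% of all genes in the jejunum, cecum, and colon. In PTPRC barcodes 10 of 11 were called, beside 17.6%, 11.1%, 20.8%, and 20.3% of all genes in the duodenum, jejunum, cecum, and colon. In COL1A2 barcodes, compared only in the colon, 1 of 3 was called beside 8.03% of all genes. In PECAM1 barcodes 8 of 10 were called, beside 50.7%, 29.5%, 15.3%, and 15.9%, and without the duodenum and jejunum 4 of 4, of which the cecum pair lacks AD blood endothelium. The shares of all genes called AD higher were 12.7% to 21.5% in EPCAM barcodes and 14.7% to 22.0% in PTPRC barcodes. They were 12.2% in COL1A2 barcodes and 3.77% to 6.09% in PECAM1 barcodes. All these shares are read as background only, because the genes were chosen on this contrast. *IGF2* and *IGF2BP3* made up 22 of the 24 calls. The other 2 were *IGF2BP2* and *LIN28B*, both in PTPRC barcodes of the colon.

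*IGF2*, the ligand, reached its highest levels per UMI in stroma and endothelium of NB tissues. In COL1A2 barcodes its level was highest in the salivary gland at 4296 CPM (4133 to 4463). The ileum at 2682 CPM (2612 to 2754), the reticulum at 2647 CPM (2520 to 2779), and the jejunum at 2622 CPM (2593 to 2651) followed with overlapping intervals. The duodenum stood at 2425 CPM, the omasum at 1514 CPM, the abomasum at 1459 CPM, the cecum at 1003 CPM, the colon at 765 CPM, and the rectum at 514 CPM. Only the omasum and abomasum overlapped among these. The range was thus wide within one stage, and the 3 large intestinal tissues were the lowest of the 10.

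In PECAM1 barcodes *IGF2* varied less between NB tissues, from 432 CPM in the abomasum to 1187 CPM in the omasum, with the reticulum at 1071 CPM, the jejunum at 935 CPM, and the colon at 616 CPM. The NB liver was far below, at 15.4 CPM (8.61 to 25.4). *IGF2* was highest in COL1A2 barcodes in 9 of the 11 NB libraries and in PECAM1 barcodes in the rectum and the liver, where only 3 COL1A2 barcodes were kept. In the liver the PECAM1 interval overlapped that of EPCAM barcodes, at 13.55 CPM. COL1A2 barcodes held 15.95% of the kept UMIs of the NB jejunum but 59.9% of its *IGF2* UMIs, and in the salivary gland 3.88% held 77.0%. The reticulum and omasum differed, with EPCAM barcodes at 70.3% and 75.9% of all kept UMIs. In the reticulum those barcodes held 34.4% of the *IGF2* UMIs, more than the 22.2% of COL1A2 and the 20.7% of PECAM1 barcodes, and in the omasum 23.7% against 33.1% and 25.4%.

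The share of stromal cells with *IGF2* also differed widely between tissues. The share of COL1A2 barcodes with at least 1 *IGF2* UMI ran from 25.7% in the NB colon to 76.9% in the NB reticulum, at median depths of 7138 and 2266 UMIs. The share in PTPRC barcodes, as a lineage that should hold little stromal RNA, was 1.07% to 8.02% in NB. With each barcode thinned to 1000 UMIs, the NB shares were 16.4% to 68.6% in COL1A2 barcodes, 19.9% to 55.6% in PECAM1 barcodes without the liver, and 0.231% to 2.49% in PTPRC barcodes.

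**Figure D1:**
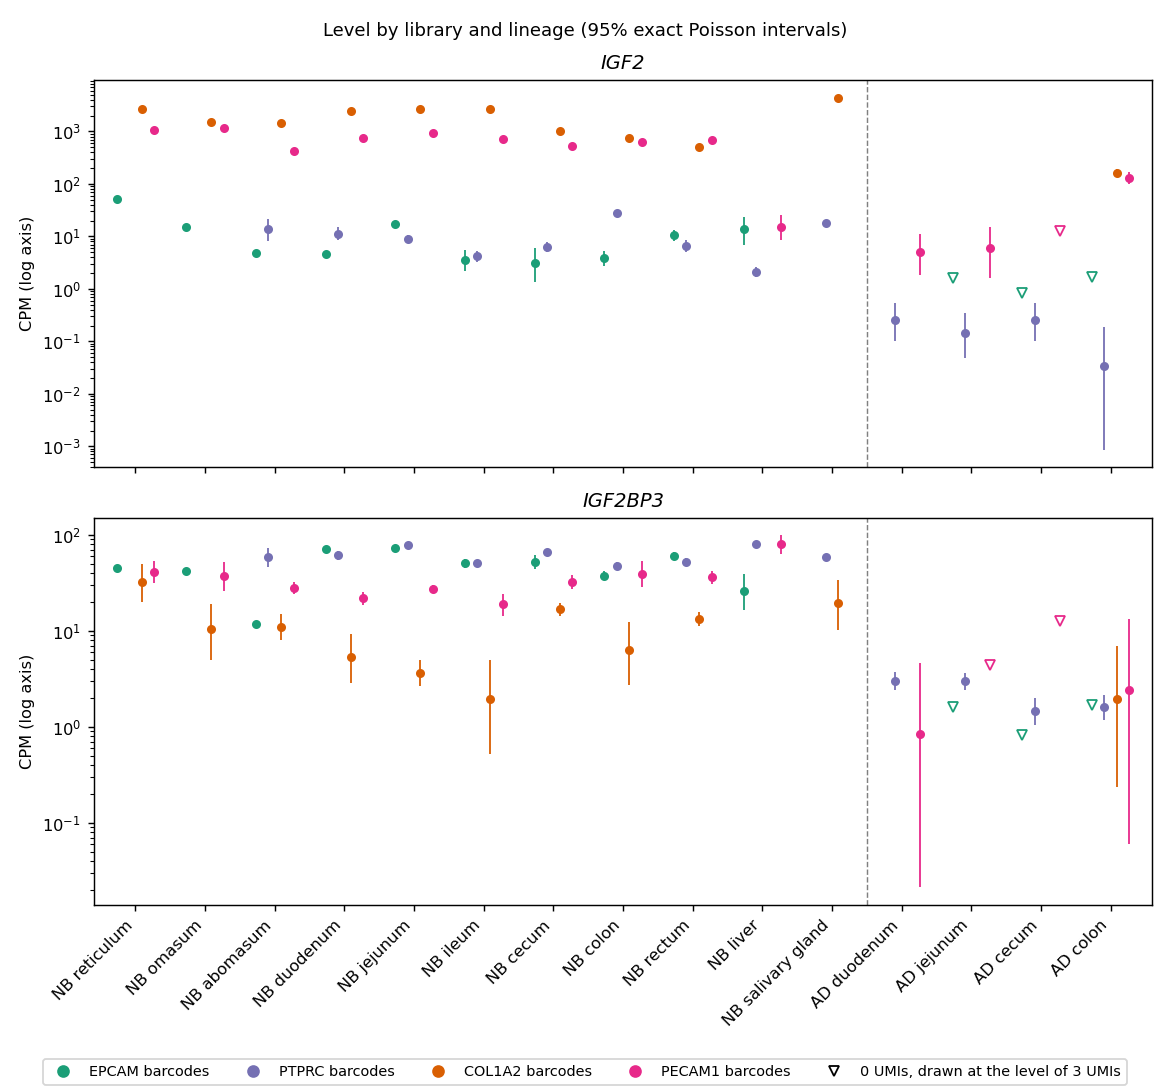
Levels of *IGF2* and *IGF2BP3* in CPM (log axes) in each library with at least 30 barcodes of a lineage, NB left and AD right of the dashed line, with colors for the 4 lineages and bars for 95% exact Poisson intervals; open triangles mark 0 UMIs, drawn at the level of 3 UMIs. *IGF2* is high in COL1A2 and PECAM1 barcodes (514 to 4296 CPM and, without the liver, 432 to 1187 CPM in NB), and *IGF2BP3* is spread over EPCAM, PTPRC, and PECAM1 barcodes in NB and at most 3.04 CPM in AD.

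Within the stroma the *IGF2* level differed by marker group. A barcode joined a group with at least 2 of its 4 markers and more than of any other group. Pericyte-like barcodes (*RGS5*, *NOTCH3*, *KCNJ8*, *ABCC9*) reached 6994 CPM in the NB abomasum, 6724 CPM in the jejunum, 6421 CPM in the rectum, 5821 CPM in the ileum, 4170 CPM in the duodenum, and 2845 CPM in the colon. Fibroblast-like barcodes (*PDGFRA*, *DPT*, *LUM*, *DCN*) of these tissues held 1389, 676, 461, 573, 1730, and 123 CPM in the same order. Pericytes, the mural cells of small vessels, thus exceeded fibroblasts in 6 of 7 NB libraries, by 2.41-fold in the duodenum to 23.1-fold in the colon.

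The omasum went the other way, and the reticulum, cecum, and salivary gland had fewer than 30 pericyte-like barcodes. In the NB omasum pericyte-like barcodes held 932 CPM against 2890 CPM in fibroblast-like barcodes, a ratio of 0.323 (0.269 to 0.384). Fibroblast-like barcodes reached 4877 CPM in the NB reticulum and 6302 CPM in the salivary gland. Smooth muscle-like barcodes were mixed, from 64.9 CPM in the NB cecum to 3529 CPM in the jejunum, which were 0.05 and 5.22 times the fibroblast level.

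**Figure D2:**
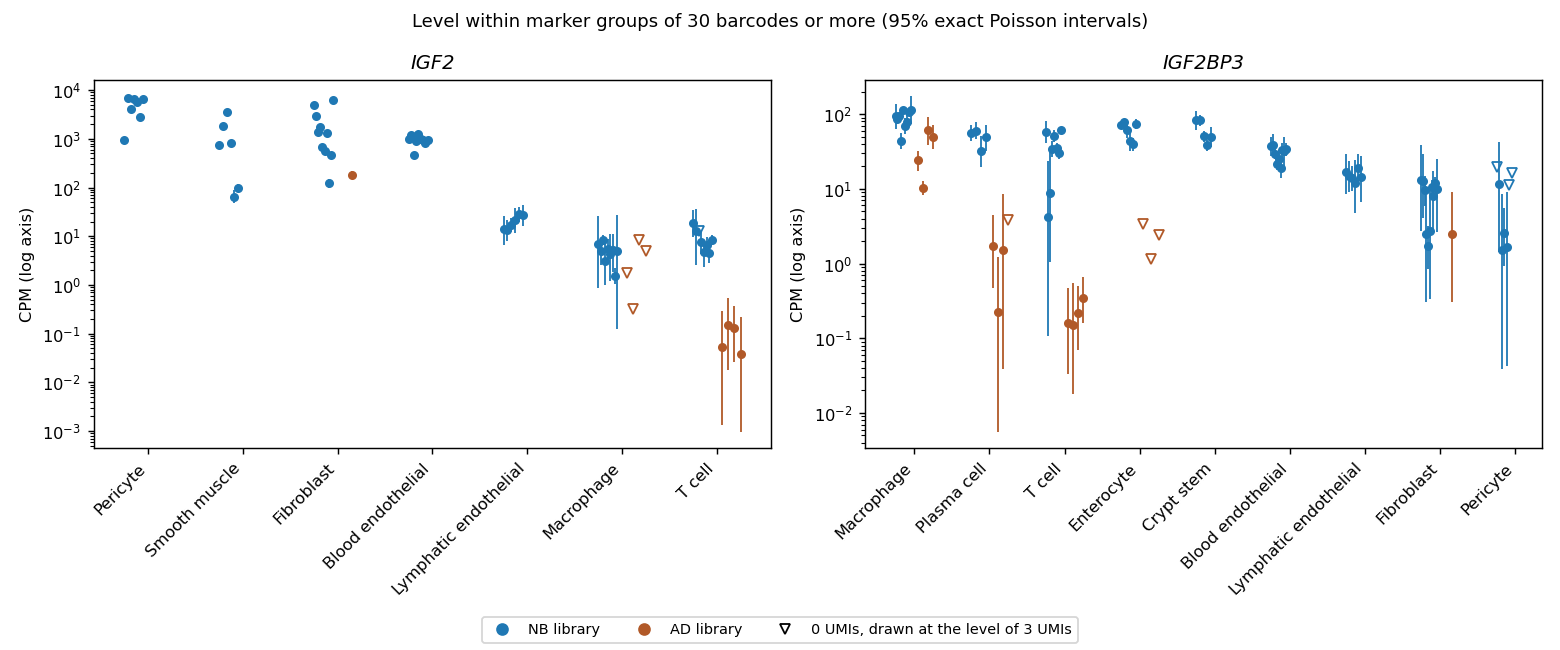
Levels of *IGF2* and *IGF2BP3* in CPM (log axes) within marker groups of at least 30 barcodes, with 1 point per library (NB blue, AD brown), 95% exact Poisson intervals, and open triangles for 0 UMIs drawn at the level of 3 UMIs. *IGF2* in NB pericytes lies between 932 and 6994 CPM, and *IGF2BP3* in AD macrophages (10.3 to 61.3 CPM) lies far above AD T cells (0.151 to 0.347 CPM).

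Endothelium was divided by vessel type. Blood endothelial barcodes held 906 CPM of *IGF2* in the NB duodenum, 465 CPM in the abomasum, 1015 CPM in the ileum, 936 CPM in the cecum, 1228 CPM in the jejunum, and 925 CPM in the rectum. Lymphatic endothelial barcodes (*PROX1*, *LYVE1*, *MMRN1*, *CCL21*) held 13.5, 13.9, 22.0, 28.4, 17.3, and 27.2 CPM. Blood exceeded lymphatic endothelium in 6 of 6 libraries, by 33.0-fold to 71.1-fold with a median of 40.1. The lymphatic levels were below those of discarded barcodes with under 500 genes of the same libraries, which held 20.5 to 298 CPM of *IGF2*. Discarded barcodes were set by gene number alone, with no limit on mitochondrial UMIs.

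Between stages, stromal *IGF2* could be compared in the colon alone, since the AD duodenum, jejunum, and cecum held 1, 4, and 2 COL1A2 barcodes. The NB colon held 765 CPM (717 to 814, 187 barcodes) and the AD colon 163 CPM (140 to 190, 146 barcodes), a ratio of 4.68 (3.97 to 5.55). The AD level was below all 10 NB libraries, but only the colon had both stages in this lineage. The share of all genes with this order is not given here. The share of barcodes with a UMI was 25.7% in NB and 28.1% in AD, or 19.02% (13.6 to 25.5) and 11.7% (6.98 to 18.1) after thinning, with overlapping intervals.

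The make-up of the 2 colon stromal samples differed, and the direction turned within fibroblasts. In the NB colon 39 pericyte-like barcodes held 20.9% of the lineage's UMIs and 756 of its 972 *IGF2* UMIs (77.8%). The AD colon had 1 pericyte-like barcode, and 103 fibroblast-like barcodes held 86.3% of its 168 *IGF2* UMIs. Within fibroblast-like barcodes *IGF2* stood at 123 CPM (99.6 to 151) in NB and 183 CPM (154 to 215) in AD, a ratio of 0.676 (0.515 to 0.883). That ratio was not called in either direction, beside 8.68% of all genes called NB higher and 11.6% AD higher in this group. With at least 3 markers, a setting chosen after seeing the data, it reached −1.35 on the log2 scale and was called AD higher. The NB excess over all COL1A2 barcodes of the colon therefore lay in barcodes outside the fibroblast group.

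**Figure D3:**
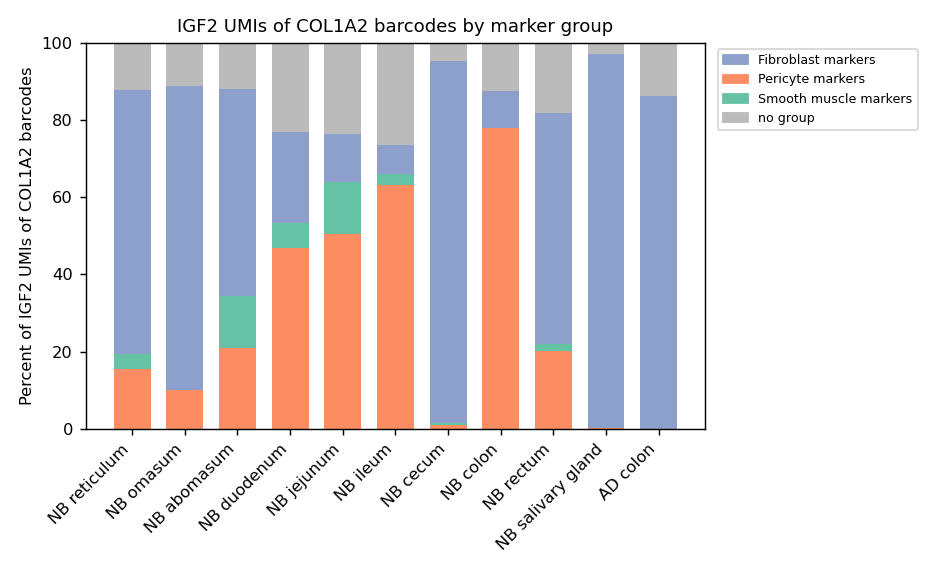
Percent of the *IGF2* UMIs of COL1A2 barcodes held by each stromal marker group, as stacked bars by library. Pericyte-like barcodes hold 77.8% in the NB colon and 63.3% in the NB ileum, and fibroblast-like barcodes hold 86.3% in the AD colon, 93.9% in the NB cecum, and 97.0% in the NB salivary gland.

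Endothelial *IGF2* was also higher in the NB colon, at 616 CPM (570 to 665) against 132 CPM (99.1 to 171) in the AD colon, a ratio of 4.68 (3.55 to 6.28). All 55 AD UMIs lay in the 23 blood endothelial barcodes, at 349 CPM (263 to 455), beside 809 CPM (742 to 881) in the 95 NB ones, so the distance was smaller within that vessel type. The AD group was under 30 barcodes and was not compared. The AD cecum had 0 UMIs of *IGF2* in 42 PECAM1 barcodes, at least 41.7-fold below the NB cecum at 527 CPM. None of those 42 carried at least 2 blood endothelial markers, against 303 barcodes or 55.1% of the NB cecum, so vessel type and stage cannot be told apart in this pair. The AD duodenum and jejunum stood at 5.00 and 5.95 CPM (6 and 4 UMIs) against 747 and 935 CPM, in barcodes that lacked endothelial genes as described above. All genes shifted in these comparisons too: the median gene was higher in NB by 1.21 on the log2 scale in the duodenum, 0.56 in the jejunum, 0.26 in the cecum, and 0.43 in the colon.

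Epithelial *IGF2* was below the COL1A2 level of the same tissue in every NB library with at least 30 COL1A2 barcodes. In NB EPCAM barcodes it ran from 3.08 CPM in the cecum to 52.5 CPM in the reticulum, with the jejunum at 17.3 CPM and the omasum at 14.8 CPM. In the abomasum, duodenum, ileum, cecum, and colon it was below the PTPRC level of the same library (4.88 against 13.8, 4.58 against 11.3, 3.57 against 4.15, 3.08 against 6.37, and 3.86 against 27.5 CPM). AD EPCAM barcodes had 0 *IGF2* UMIs in the jejunum, cecum, and colon. The NB excess was at least 10.9-fold in the jejunum and 2.26-fold in the colon, and the cecum, with 8 UMIs, had too few to call. Within barcodes with enterocyte markers the jejunum bound was 3.05, beside 8.84% of all genes. The cecum and colon there, with 4 and 5 UMIs, had too few to call. EPCAM barcodes with no marker group held 92 of the 208 *IGF2* UMIs of the NB jejunum and 28 of the 36 of the NB colon.

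In PTPRC barcodes *IGF2* stood at 2.11 CPM in the NB liver to 27.5 CPM in the NB colon, against 0.256, 0.147, 0.256, and 0.0341 CPM (7, 5, 7, and 1 UMIs) in the AD duodenum, jejunum, cecum, and colon. The ratios were 44.1, 60.5, 24.9, and 804 (143 to 31889). The last rests on 1 AD UMI, and its log2 value fell from 9.65 to 5.14 with every barcode holding *PTPRC* taken, whatever the other 3 lineage genes were. Stromal and endothelial check markers moved with it in the same barcodes. The 4 stromal ones summed to 2.39 to 145 CPM in NB PTPRC barcodes with or without a marker group and to 0.464 to 3.97 CPM in AD, and the 4 endothelial ones to 3.24 to 58.3 CPM and 0.784 to 4.37 CPM. Discarded barcodes with under 500 genes held 20.5 to 298 CPM of *IGF2* in NB and 0.286 to 2.98 CPM in AD. Their part in the leukocyte and epithelial ratios was not tested. In the NB colon 384 PTPRC barcodes with no marker group held 222 of the 254 *IGF2* UMIs, at 86.8 CPM, and in the NB salivary gland 259 such barcodes held 98 of 192, at 82.4 CPM, so most of the *IGF2* UMIs in both lay outside the named leukocyte groups. T cells of the NB cecum and colon held 7.45 and 4.70 CPM against 0.129 and 0.0385 CPM in AD, and macrophages of the NB jejunum held 8.47 CPM against 0 UMIs.

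*IGF2BP3*, an mRNA-binding protein, was shared by epithelium, leukocytes, and endothelium of NB tissues. In NB PTPRC barcodes it ranged from 47.5 CPM in the colon to 81.5 CPM in the liver, with 78.1 CPM in the jejunum, 66.1 CPM in the cecum, and 61.4 CPM in the duodenum. In NB EPCAM barcodes it was lowest in the abomasum at 11.9 CPM and highest in the jejunum at 73.6 CPM, followed by the duodenum at 70.9 CPM and the rectum at 60.6 CPM. PECAM1 barcodes held 18.97 CPM in the NB ileum to 80.0 CPM in the NB liver, and COL1A2 barcodes 1.93 CPM in the ileum to 32.7 CPM in the reticulum. Of the 165 liver PECAM1 barcodes 3 were blood endothelial by their markers. All 78 *IGF2BP3* UMIs there lay in the 162 with no marker group, so the liver value is not one of clear endothelium. Leukocytes were highest in 7 NB libraries and epithelium in the other 4, but the intervals of the first and second lineage were apart in 2 of 11, the abomasum and the salivary gland, and only 2 or 3 lineages were ranked in 4 libraries. Across the 48 profiles of library and lineage with at least 100 barcodes, *IGF2* and *IGF2BP3* had a Pearson correlation of −0.06, on the log2(CPM + 5) scale.

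AD levels of *IGF2BP3* were low in every lineage. In AD EPCAM barcodes there were 0 UMIs in the jejunum, cecum, and colon, in 193, 302, and 171 barcodes. The NB excess was at least 46.2-fold in the jejunum (73.6 CPM), 63.9-fold in the cecum (52.4 CPM), and 22.1-fold in the colon (37.6 CPM). In epithelium with enterocyte markers alone (*FABP2*, *FABP1*, *APOA4*, *VIL1*, *ALPI*), the bounds were 23.1, 37.7, and 16.4, beside 8.84%, 6.76%, and 5.36% of all genes called in those groups. The AD epithelium thus gave no UMI in these 3 tissues, at median depths of 8097 to 13415 UMIs a barcode. The upper limit on the share of barcodes with a UMI was 1.21% in the cecum and 2.13% in the colon. These limits concern detection at that depth, not the share of cells with the transcript. The duodenum, with 28 AD EPCAM barcodes that held 1 *IGF2BP3* UMI (7.50 CPM, 0.190 to 41.8), was not compared.

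In PTPRC barcodes the AD levels were 3.04 CPM in the duodenum, 2.99 CPM in the jejunum, 1.46 CPM in the cecum, and 1.61 CPM in the colon. NB levels were 20.2-fold (15.8 to 26.1), 26.1-fold (21.3 to 32.3), 45.1-fold (32.9 to 63.7), and 29.6-fold (21.9 to 40.9) higher. In point value the lowest of the 9 NB libraries, at 47.5 CPM, lay above the highest of the 4 AD libraries, at 3.04 CPM. The share of all genes with this order is not given here. Only the duodenum, jejunum, cecum, and colon had both stages, and the AD libraries were of the same animal. The share of barcodes with a UMI was 21.6% to 44.6% in NB and 0.382% to 1.21% in AD, or 3.52% to 6.45% and 0.118% to 0.295% after thinning to 1000 UMIs. Discarded barcodes with under 500 genes held 5.81 to 39.7 CPM of *IGF2BP3* in NB and 1.06 to 2.65 CPM in AD. NB leukocytes lay above the level of these barcodes in each library, and AD leukocytes as a whole lay close to it. These barcodes were set by gene number alone, with no limit on mitochondrial UMIs, so they are a rough reference level.

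The AD leukocyte signal lay mainly in macrophages. Macrophage-like barcodes (*CSF1R*, *C1QA*, *C1QB*, *CD68*) held 42 of 83, 96 of 102, 22 of 40, and 31 of 47 *IGF2BP3* UMIs of AD PTPRC barcodes in the duodenum, jejunum, cecum, and colon. These were 6.39%, 27.3%, 1.31%, and 2.10% of the lineage's UMIs. AD macrophages carried 24.1 CPM (17.4 to 32.6), 10.3 CPM (8.34 to 12.6), 61.3 CPM (38.4 to 92.9), and 50.3 CPM (34.2 to 71.4), and their marker *C1QA* stood at 12377 to 19881 CPM. AD T cells (*CD3E*, *CD3D*, *CD3G*, *CD2*) carried 0.160, 0.151, 0.215, and 0.347 CPM. AD macrophages thus exceeded AD T cells of the same library by 68.4-fold to 285-fold in 4 of 4.

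The stage ratio of *IGF2BP3* differed among the leukocyte groups given here. In macrophages it was 3.57 (2.55 to 5.10) in the duodenum and 9.17 (7.43 to 11.4) in the jejunum, both called, but 1.87 (1.22 to 3.01) in the cecum and 1.39 (0.894 to 2.21) in the colon, not called. The background of all genes in these groups was 6.57%, 9.09%, 5.49%, and 7.68%. In T cells the ratio was 160 (65.6 to 508) in the cecum and 147 (74.7 to 328) in the colon, beside 14.4% and 11.7% of all genes. Plasma cells gave 39.4 in the cecum and at least 8.49 in the colon, beside 21.4% and 24.8%. In NB the groups were closer together: macrophages exceeded T cells in 8 of 8 libraries, by 1.38-fold in the colon to 22.5-fold in the jejunum, where T cells had 1 UMI.

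*IGF2BP3* also differed with cell division and vessel type. Dividing epithelial barcodes, with at least 2 of *MKI67*, *TOP2A*, and *CENPF*, held more *IGF2BP3* than those with none in 8 of 8 NB libraries, from 1.204-fold in the duodenum to 3.85-fold in the abomasum (43.2 against 11.2 CPM), and the interval lay above 1 in 7. In NB leukocytes the direction was mixed, 4 of 8 above 1. In AD leukocytes of the duodenum dividing barcodes held 23.7 CPM against 2.22 CPM (16 and 56 UMIs), and in the AD colon 4.96 against 1.148 CPM (6 and 30 UMIs). In the AD jejunum they held less, 0.841 against 3.62 CPM, and in the AD cecum 1.22 against 1.33 CPM, from 1 UMI. Cell types were not matched between dividing and other barcodes, here or for the genes below. In NB epithelium, crypt stem-like barcodes (*LGR5*, *OLFM4*, *SMOC2*, *ASCL2*) exceeded enterocyte-like ones in 2 of 5 libraries, at ratios from 0.682 to 1.17. The interval lay above 1 in 0 and below 1 in 1. Blood endothelium exceeded lymphatic endothelium in 6 of 6 NB libraries, by 1.42-fold to 2.36-fold, with the interval above 1 in 3.

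In PECAM1 barcodes *IGF2BP3* stood at 0.833 CPM (1 UMI) in the AD duodenum, 0 in the jejunum and cecum, and 2.39 CPM (1 UMI) in the colon. NB levels were 26.3-fold (4.66 to 1046), at least 6.15-fold, at least 2.57-fold, and 16.6-fold (2.82 to 670) higher. The AD duodenum and jejunum barcodes lacked endothelial genes, and the AD cecum lacked blood endothelium, as given above. In the colon the 23 AD blood endothelial barcodes held 0 UMIs (0 to 23.4 CPM), against 32.1 CPM (19.85 to 49.0) in the 95 NB ones. Those intervals overlapped, and the AD group, under 30 barcodes, was not compared. In COL1A2 barcodes of the colon the counts were 8 and 2 UMIs, and the ratio of 3.24 (0.646 to 31.3) was not called. In the RefSeq annotation of another bovine assembly, *IGF2BP3* neighbours *MALSU1*, *GPNMB*, and *TRA2A*, and none of these followed it over the 48 profiles (Pearson −0.23, 0.03, and 0.08).

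*IGF2BP2*, the paralog that many adult tissues keep, was found in epithelium, stroma, and endothelium, and 1 of its 8 comparisons was called NB higher. The PECAM1 pairs of the duodenum and jejunum could not be called at their depth, as given below. In NB EPCAM barcodes it ranged from 3.43 CPM in the abomasum to 13.9 CPM in the colon, with 0 UMIs in the liver. AD EPCAM barcodes held 15.4 CPM (10.3 to 22.1) in the jejunum, 18.3 CPM (14.2 to 23.3) in the cecum, and 19.3 CPM (13.4 to 27.0) in the colon, all above the highest NB library in point value. The share of all genes with this order is not given here. The ratios NB to AD were 0.698 (0.464 to 1.08), 0.568 (0.349 to 0.9002), and 0.721 (0.491 to 1.09), beside 20.2%, 12.7%, and 21.5% of all genes called AD higher, and none of the 3 passed the fold of 2. The cecum was called AD higher without dividing barcodes (log2 ratio −1.14) and the colon with each barcode weighted equally (−1.43). Within enterocytes of the cecum the level was 9.60 CPM in NB and 21.0 CPM in AD, a ratio of 0.457 (0.223 to 0.863), called AD higher beside 14.1% of all genes. Enterocytes of the jejunum (0.843, 0.447 to 1.75) and the colon (0.627, 0.324 to 1.23) were not called.

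In other lineages *IGF2BP2* did not separate the stages or had few UMIs. COL1A2 barcodes of the colon held 9.44 CPM in NB and 9.72 CPM in AD, a ratio of 0.971 (0.385 to 2.51). NB COL1A2 barcodes ran from 3.26 to 13.1 CPM and NB PECAM1 barcodes from 1.72 to 17.0 CPM, highest in the reticulum in both. AD PECAM1 barcodes held 0 UMIs in the duodenum, jejunum, and cecum and 1 in the colon, against 31, 35, 7, and 4 in NB. The AD floor of 3 UMIs stood at 2.50 CPM in the duodenum and 4.47 CPM in the jejunum. NB levels there were 4.00 and 2.305 CPM, so these pairs could not reach the fold of 2 and do not show equal levels. Leukocytes had little, at most 1.54 CPM, and the colon gave 0.757 CPM (7 UMIs) in NB against 0.171 CPM (5 UMIs) in AD, a ratio of 4.43 (1.21 to 17.7) that was called. Blood endothelium exceeded lymphatic endothelium in 5 of 5 NB libraries, by 2.01-fold to 6.54-fold, with the interval above 1 in 2. Dividing epithelial barcodes held more *IGF2BP2* than others in 4 of 8 NB libraries, with ratios from 0.458 to 1.53, and only the reticulum, at 7.03 against 15.4 CPM, had an interval that left out 1.

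*IGF2BP1*, the second oncofetal paralog, was a rare epithelial transcript. NB EPCAM barcodes held 327 UMIs over 10 libraries, from 0.162 CPM in the ileum to 3.002 CPM (1.995 to 4.34) in the colon, with the abomasum at 1.99 CPM and the reticulum at 1.78 CPM. The other lineages held at most 5 UMIs over the NB libraries. EPCAM barcodes were highest in 9 of 11 NB libraries, with the interval apart from that of the next lineage in 3 of the 9 (abomasum, cecum, and colon). AD EPCAM barcodes had 0 UMIs in all 3 tissues, and the colon ratio was at least 1.76, below the fold of 2. Dividing barcodes held more *IGF2BP1* than others in 5 of 5 NB libraries with enough UMIs, by 1.55-fold to 7.59-fold, with the interval above 1 in the reticulum (3.32) and the abomasum (7.59).

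*LIN28B*, the let-7 antagonist, was a rare transcript of NB leukocytes. PTPRC barcodes held 87 UMIs over the NB libraries, and the EPCAM, COL1A2, and PECAM1 barcodes held 1, 2, and 6. The salivary gland had 30 UMIs at 2.79 CPM (1.88 to 3.98), the abomasum 2 UMIs at 1.54 CPM, the colon 14 UMIs at 1.51 CPM (0.827 to 2.54), the rectum 12 UMIs at 1.30 CPM, and the cecum 8 UMIs at 0.621 CPM. In the salivary gland 22 of the UMIs lay in T cells, at 2.87 CPM, and T cells held 9 of 12 in the rectum, 7 of 8 in the cecum, but 2 of 14 in the colon, at 0.855 CPM. AD barcodes of all 4 lineages had 0 UMIs. The colon, with an AD floor of 0.102 CPM, was called at a bound of at least 14.8-fold, and the cecum, with 8 UMIs, had too few to call.

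*HMGA2*, a chromatin protein of fetal growth, was rarer still. NB EPCAM barcodes held 85 UMIs, from 0 to 1.72 CPM (0.981 to 2.79) in the colon. There 16 UMIs gave a ratio of 1.006 with the AD count of 0 taken as 3 UMIs, and the lower limit of its interval was 0.728. AD EPCAM barcodes held 1 UMI in the jejunum and 5 in the cecum, where the AD level of 1.37 CPM was above the NB level of 0.771 CPM (2 UMIs) within the counting error of both.

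**Figure D4:**
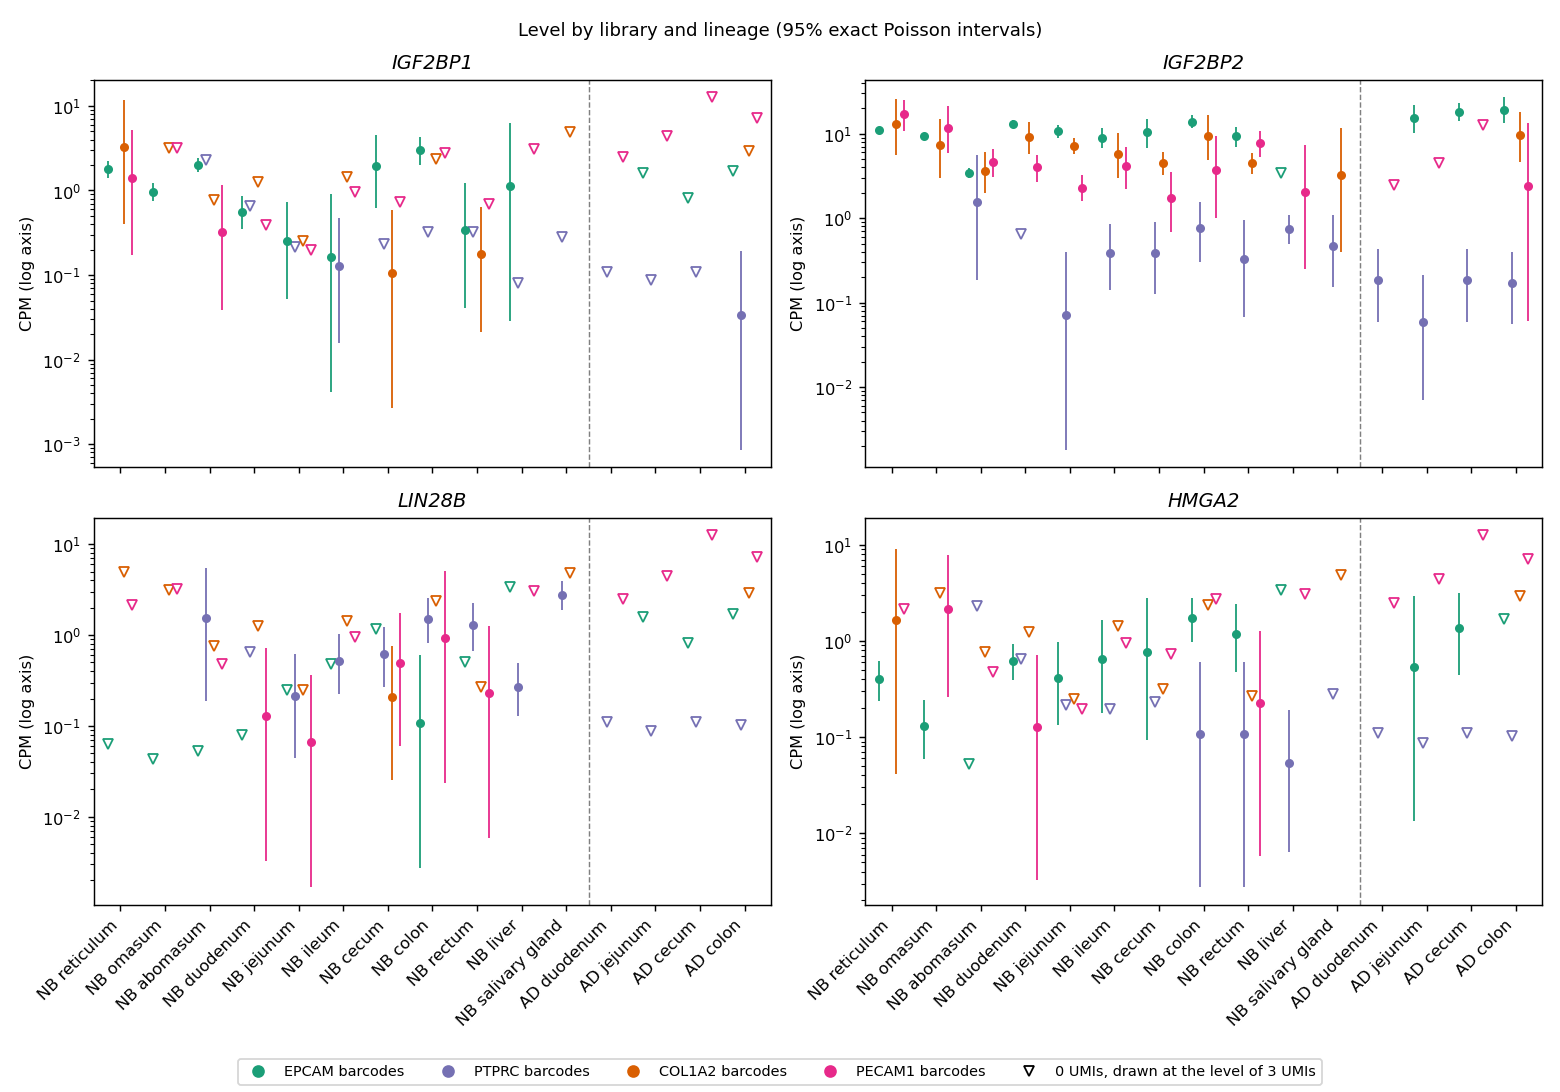
Levels of *IGF2BP1*, *IGF2BP2*, *LIN28B*, and *HMGA2* in CPM (log axes) by library for lineages of at least 30 barcodes, NB left and AD right of the dashed line, with colors for the 4 lineages, 95% exact Poisson intervals, and open triangles for 0 UMIs drawn at the level of 3 UMIs. *IGF2BP2* in EPCAM barcodes stays between 3.43 and 19.3 CPM in the libraries with a UMI, and the other 3 genes stay at or below 3.27 CPM.

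The genes with the most similar profiles over the 48 profiles, among 9053 genes, are listed as a description, since profiles share libraries, depth, and lineage. *IGF2* was closest to *COL4A1* (Pearson 0.96), *SPARC*, *LAMB2*, *EHD2*, and *FGFR1* (0.95 each), where *COL4A1* and *LAMB2* encode basement membrane proteins. *IGF2BP3* was closest to ENSBTAG00000033897 (0.75), *NR4A1* (0.72), *NME2* (0.71), ENSBTAG00000025385 (0.69), and *GGCT* (0.69). *IGF2BP2* followed *PPFIA3* and *IQCE* (0.86), *AKAP1* (0.85), *COQ9*, and *CLTB* (0.83). *IGF2BP1* followed *MPZL2* (0.69), *HOMER2* (0.68), *SMIM5* and the crypt stem cell factor *ASCL2* (0.66), and *S100A2* (0.65). *LIN28B* followed ENSBTAG00000050713 (0.75), *PES1* (0.71), *NCR3* (0.70), *TXK*, and the naive T cell receptor *CCR7* (0.69), and *HMGA2* followed *SRD5A1* and *LYZ1* (0.63), *CCDC58* and *CKMT1A* (0.62), and *RHBDL2* (0.61). Among the 6 genes themselves the strongest pairs were *IGF2BP2* with *HMGA2* (0.57) and *IGF2BP1* with *HMGA2* (0.48). *IGF2BP1*, *LIN28B*, and *HMGA2* stayed at or below 3.27 CPM, under the 5 CPM added before the log. All correlations of these genes therefore rest on levels near the floor.

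The rest of the IGF system, a list of 19 genes of ligands, receptors, binding proteins, and proteases, was counted with the same rule. Genes of this and the next lists are named where they were called the same way in at least 3 tissues, and those called in fewer tissues were named after their values were seen. In PTPRC barcodes 5 of 9, 6 of 13, 6 of 9, and 8 of 11 genes with enough UMIs were higher in NB in the duodenum, jejunum, cecum, and colon, beside 17.6%, 11.1%, 20.8%, and 20.3% of all genes. In AD 0, 0, 0, and 1 were higher, and the median log2 ratio was 2.33, 1.29, 3.64, and 2.70 against −0.24, −0.23, −0.15, and 0.02 over all genes. The background of AD higher calls was 22.0%, 15.4%, 20.3%, and 14.7%. The make-up of PTPRC barcodes moved with stage. T cells were 27 of 505, 56 of 1459, 258 of 1273, and 396 of 1375 in the NB duodenum, jejunum, cecum, and colon, and 5071 of 6715, 2694 of 6128, 6062 of 6802, and 6176 of 6788 in AD. Its part in the leukocyte counts and folds of this and the next lists was not tested. The ligand *IGF1* was 2.44-fold to 11.5-fold higher in NB in all 4 tissues, and the binding proteins *IGFBP3* (6.52 to 392), *IGFBP6* (15.8 to 131), and *IGFBP7* (12.4 to 200) likewise, with *IGFBP4* (7.21 to 17.9) and *STC1* (25.5 to 45.9) in 3. *IGFBP3*, *IGFBP6*, and *IGFBP7* are stromal and vascular transcripts, and the stromal check markers were also higher in NB, as given above.

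In epithelium the IGF list had both directions. Of 12, 10, and 11 genes, 4, 3, and 1 were higher in NB and 3, 1, and 4 higher in AD in the jejunum, cecum, and colon. The shares of all genes were 7.91%, 9.56%, and 6.45% NB higher and 20.2%, 12.7%, and 21.5% AD higher. The list medians were −0.35, 0.27, and −0.82 against −0.36, −0.22, and −0.37 over all genes. *IGFBP2*, a binding protein, was higher in AD in all 3, at 43.6, 15.04, and 26.7 CPM against 1.67, 0.771, and 1.82 CPM. *IGFBP7* was listed at 0 in AD and at 15.9, 25.1, and 6.11 CPM in NB, at least 3.58-fold to 30.5-fold higher. NB PECAM1 barcodes of these tissues held 1879, 1013, and 1908 CPM of it, and the part of RNA from other lineages was not tested. In COL1A2 barcodes of the colon 2 of 11 were higher in NB and 5 higher in AD, with a median of −1.09 against −0.07, beside 8.03% of all genes NB higher and 12.2% AD higher. *IGF1* (17.5 against 3.15 CPM), *IGFBP3*, *IGFBP4*, *IGFBP5* (414 against 37.8 CPM), and *IGFBP6* were higher in AD and *IGFBP2* and *IGFBP7* in NB. The make-up of both lineages differed with stage. Pericyte-like barcodes were 39 of 187 COL1A2 barcodes in the NB colon and 1 of 146 in AD. Tuft-like barcodes (*TRPM5*, *POU2F3*, *AVIL*, *DCLK1*) were 0 of 972 EPCAM barcodes in the NB jejunum and 24 of 193 in AD. The part of make-up in the counts and folds of this and the next lists was not tested.

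In PECAM1 barcodes 7 of 11, 6 of 11, 6 of 9, and 2 of 8 IGF genes were higher in NB in the duodenum, jejunum, cecum, and colon, beside 50.7%, 29.5%, 15.3%, and 15.9% of all genes. Their medians were 3.33, 2.27, 1.99, and 0.80, against 1.21, 0.56, 0.26, and 0.43 over all genes. None was AD higher, beside 5.11%, 6.09%, 4.03%, and 3.77% of all genes. The colon pair alone had AD blood endothelium, and there *IGFBP4* (445 against 163 CPM) and *IGFBP7* (1908 against 498 CPM) were the 2 called. *IGFBP3*, *IGFBP6*, and *STC1* were called in the other 3 tissues. The same limit on those 3 pairs holds for the PECAM1 counts and folds of the lists below.

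Imprinted growth genes, a list of 19 of which 15 had 1 identifier, were counted next. The counts NB higher were 4 of 6, 8 of 9, 8 of 10, and 5 of 8 in PTPRC barcodes, beside 17.6%, 11.1%, 20.8%, and 20.3% of all genes. In AD 1 of 6 was higher in the duodenum (*PLAGL1*), beside 22.0% of all genes. Medians were 2.36, 3.02, 2.82, and 3.92, against −0.24, −0.23, −0.15, and 0.02 over all genes. The stromal check markers stood at 2.39 to 145 CPM in NB and 0.464 to 3.97 CPM in AD PTPRC barcodes, higher in NB in each tissue with both stages. Their part in these genes and in the growth genes given last was not tested. *PEG3*, a zinc-finger gene, was higher in all 4 tissues (14.9-fold to 59.8-fold, 3 of them bounds), as were the cell cycle inhibitor *CDKN1C* (6.08 to 27.6) and the growth restrictor *PHLDA2* (5.44 to 72.9), and *PEG10* (8.49 to 43.3, 2 of them bounds), *MEST* (5.91 to 45.9), and *GRB10* (2.32 to 8.13) in 3. In EPCAM barcodes 2 of 9, 1 of 6, and 4 of 10 were NB higher, beside 7.91%, 9.56%, and 6.45% of all genes, with medians of 0.14, 0.59, and 0.75, and *PEG3* was at least 4.70-fold to 10.1-fold higher in all 3. *GRB10* was AD higher there in the jejunum, at a ratio of 0.235, the 1 such call of 9 beside 20.2% of all genes. In PECAM1 barcodes 7 of 9, 7 of 10, 3 of 9, and 3 of 8 were NB higher, beside 50.7%, 29.5%, 15.3%, and 15.9% of all genes, with medians of 3.84, 1.32, 0.90, and 0.95 against 1.21, 0.56, 0.26, and 0.43. *MEST* (5.31 to 23.7, 2 of them bounds), *CDKN1C* (4.66 to 39.2, the highest a bound), and *GRB10* (5.40 to 34.5, 1 of them a bound) were called in all 4. In the colon, the pair with AD blood endothelium, they stood at 8.48, 4.66, and 5.40. In COL1A2 barcodes 3 of 11 were NB higher, beside 8.03% of all genes and at a median of −0.05, namely *DLK1*, *MEST* (81.8 against 0.972 CPM), and *PHLDA2*.

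The LIN28 and let-7 list, with 13 of 15 genes matched, had calls in both directions. In PTPRC barcodes 0 of 11, 1 of 12, 3 of 12, and 3 of 12 were NB higher beside 17.6%, 11.1%, 20.8%, and 20.3% of all genes, and 3, 1, 2, and 2 were AD higher, beside 22.0%, 15.4%, 20.3%, and 14.7%. The medians were −0.43, −0.31, −0.31, and −0.12. *TUT4*, which uridylates pre-let-7, was higher in AD in 3 tissues (ratios 0.346 to 0.449), and the let-7 target *MYCN* higher in NB in 3 (20.7 to 139, 1 of them a bound). In EPCAM barcodes 1 of 11, 2 of 10, and 2 of 11 were NB higher, beside 7.91%, 9.56%, and 6.45% of all genes, and 4, 2, and 3 AD higher, beside 20.2%, 12.7%, and 21.5%. The medians there were −0.42, −0.11, and −0.53, with *ARID3A* NB higher in all 3 (3.78 to 11.3). In PECAM1 barcodes 4, 2, 1, and 1 of 11, 11, 11, and 8 were NB higher, at or below the shares of all genes there, and 2, 3, 1, and 1 AD higher, beside 5.11%, 6.09%, 4.03%, and 3.77%, with medians of 0.45, 0.36, −0.73, and 0.14, and there *ARID3A* was AD higher in all 4 (0.162 to 0.285), with *MYC* NB higher in 3 (2.98 to 4.78). COL1A2 barcodes gave 2 of 10 in each direction at a median of −0.36, beside 8.03% of all genes NB higher and 12.2% AD higher, with *MYC* at 41.7 against 1.94 CPM and *MYCN* at 13.4 CPM against 0 UMIs on the NB side and *TUT7* and *ARID3A* on the AD side.

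The list of 10 growth transcription and fetal genes gave 2, 2, 4, and 4 of 5 NB higher in PTPRC barcodes, beside 17.6%, 11.1%, 20.8%, and 20.3% of all genes, and 0 AD higher, beside 22.0%, 15.4%, 20.3%, and 14.7%, with medians of 1.72, 0.59, 2.99, and 2.22. *SOX4*, a progenitor transcription factor, was higher in all 4 tissues (5.03 to 14.2), *PLAG1*, an activator of *IGF2* transcription, in 3 (3.94 to 15.4), and the cyclin *CCND1* in 3 (4.66 to 25.1). In PECAM1 barcodes 2 of 6, 2 of 7, 2 of 6, and 2 of 4 were NB higher, beside 50.7%, 29.5%, 15.3%, and 15.9% of all genes, and 1 was AD higher, in the jejunum (*HMGA1*), beside 6.09%. *SOX4* was among those higher in NB in all 4 tissues (3.09 to 186), and *CCND1* in 3. In EPCAM barcodes none of 7, 5, and 6 was NB higher, beside 7.91%, 9.56%, and 6.45% of all genes, and 1, 0, and 2 were AD higher, beside 20.2%, 12.7%, and 21.5%, with medians of −0.08, −0.04, and 0.24. In COL1A2 barcodes none of 5 was called in either direction, beside 8.03% of all genes NB higher and 12.2% AD higher, at a median of −0.27. Of the 7 IGF2BP partners and targets, 1, 0, 1, and 1 were NB higher in PTPRC barcodes, beside 17.6%, 11.1%, 20.8%, and 20.3% of all genes, and 1 was AD higher, in the duodenum, beside 22.0%. EPCAM barcodes gave 1, 2, and 2 NB higher, beside 7.91%, 9.56%, and 6.45%, and COL1A2 barcodes 1, beside 8.03%, with 0 AD higher in either. PECAM1 barcodes gave 5, 2, 4, and 1 NB higher, beside 50.7%, 29.5%, 15.3%, and 15.9%, and 1 AD higher in each of the duodenum, jejunum, and cecum, beside 5.11%, 6.09%, and 4.03%. Medians ran from −0.27 to 0.27 in PTPRC, from −0.09 to 0.69 in EPCAM, and from 0.50 to 1.39 in PECAM1 barcodes, and stood at 0.17 in COL1A2 barcodes. The translation factor *YBX1* was NB higher in PECAM1 barcodes in all 4 tissues (2.196 to 4.79), and the adhesion receptor *CD44* AD higher in 3 (0.0392 to 0.444). Those 3 were the duodenum, jejunum, and cecum, all without AD blood endothelial barcodes in number. *MYC* stands in both the let-7 and the partner list, and *HMGA1* in both the let-7 and the growth transcription list.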

How the data were processed

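The authors sequenced 10x Genomics 3′ v3 single-cell libraries and processed them with Cell Ranger 3.1.0 against the bovine assembly ARS-UCD1.2; the annotation release is not given in the sources used here. The deposited values were raw UMI counts per gene and barcode, without normalization.

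A barcode was kept when it had between 500 and 4000 detected genes, fewer than 50000 UMIs, and less than 40% of UMIs from the 13 mitochondrial genes. Doublets were removed by a nearest-neighbour score against artificial doublets (0.8% per 1000 barcodes, 2 artificial per observed barcode, 30 components of 2000 variable genes). Counts were summed over each lineage and divided by their total to give CPM. A pair of stages was compared with at least 30 barcodes in each, and a gene with at least 10 UMIs over both. With 1 library for each tissue and stage there was no replicate check, no test was made, and all intervals (Poisson, conditional binomial, and Clopper-Pearson, at 95%) cover counting error only.

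The genes, the gene lists, and the markers were chosen with earlier results of these data known. Genes outside the set of 6 were named by a rule: the 5 with the highest Pearson correlation with each of the 6 over profiles of at least 100 barcodes, among genes reaching 20 CPM in at least 3 profiles, and list genes called one way in at least 3 tissues of a lineage; list genes called in fewer tissues were named after their values were seen. Library totals and depth per barcode are given with the results, and the scripts were tested on simulated data. A RefSeq table of another bovine assembly served for gene neighbours only, and no sequence or coordinate is printed. One leukocyte marker group is not reported here. Python 3.11.15, NumPy 2.4.6, SciPy 1.17.1, pandas 2.3.3, scikit-learn 1.9.0, and matplotlib 3.10.9 were used.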

Additional observations from a re-analysis of the deposited data

How the results depend on the processing

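Under 11 other settings of the filters, lineage rule, and scaling, and those added after seeing the data, no called ratio changed sign. Some calls were lost. *IGF2* in EPCAM barcodes of the colon was called in 8 of 9 settings with a value. It fell to 0.81 on the log2 scale with no upper limit on genes or UMIs. Of 324 single ratios recomputed, 295 stayed within the limits set for them and 29 moved. The limits were the counting interval where both stages had UMIs. They were wider where a stage had none, so such ratios could leave their counting interval and still count as unmoved. Thinning to 1000 UMIs moved 13 of the 20 it gave a value for and left 13 others without one. In EPCAM barcodes the calls rose from 5 of 10 to 10 of 16 when the lineage gene was taken whatever the other 3 were, and became 3 of 7 without the jejunum pair and 3 of 5 without the colon pair, both chosen after seeing the data. In PTPRC barcodes the 10 calls became 6 of 7 without the colon pair (chosen after seeing the data). In COL1A2 barcodes the 1 call became 2 of 6 with doublets left in and 2 of 3 with the lineage gene whatever the other 3 were. In PECAM1 barcodes the 8 calls became 4 of 7 after thinning and 4 of 4 without the duodenum and jejunum pairs (chosen after seeing the data), and requiring 2 UMIs of the lineage gene left no pair there. The share of all genes called is not given under the other filters and lineage rules, so those counts stand without a background. For counts with a pair left out, the shares given in the results for the remaining tissues hold. *IGF2BP2* in EPCAM barcodes was called AD higher in the cecum without dividing barcodes (log2 ratio −1.14) and in the colon with each barcode weighted equally (−1.43). *IGF2* in PTPRC barcodes of the colon fell from 9.65 to 5.14 on the log2 scale with the lineage gene whatever the other 3 were. *IGF2* was highest in COL1A2 barcodes in 8 to 10 of 11 NB libraries. Stages were set side by side within a tissue, but no paired test was made. Each tissue and stage had 1 library, all AD tissues came from 1 cow, and the labels give no replicate numbers shared by groups.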
